A study of Mus musculus with 18 samples.

Results

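The Cyp4a genes were measured in mouse liver by 6 probes out of 34472 on the array, which carry 6 of its 23981 gene symbols, taken as every probe whose gene symbol holds Cyp4a10, Cyp4a12a, Cyp4a12b, Cyp4a14, Cyp4a31 or Cyp4a32. Cyp4a12a, Cyp4a12b, Cyp4a14 and Cyp4a31 each had a probe of their own. Another probe carries the symbols of both Cyp4a10 and Cyp4a31, and another those of both Cyp4a32 and Cyp4a10, so Cyp4a10 and Cyp4a32 had no probe of their own and a value of a shared probe belongs to no single gene. No filter on signal was used, and all 6 probes lay above the median of their array on 18 of 18 arrays.

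The livers came from male C57BL6 mice that were 6 weeks old at the start and 18 weeks old at the end of 12 weeks of feeding, in 6 groups of 3 biological replicates. On a diet low in fat (10% of the kilocalories) the groups were PFOS, PFNA and a control on the diet alone, and on one high in fat (45% of the kilocalories) they were again PFOS, PFNA and a control on the diet alone. PFOS stands for perfluorooctane sulfonic acid and PFNA for perfluorononanoic acid, which are persistent surfactant-like chemicals whose fluorinated chains are equally long and which differ in the acid group at the end of the chain, sulfonic in the one and carboxylic in the other. No source used here states a dose, so PFNA and PFOS are set side by side at doses whose match is unknown, and all groups share one strain, one sex and one length of feeding.

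Cyp4a enzymes are cytochrome P450s of the endoplasmic reticulum that hydroxylate the far (omega) end of fatty acids. The products are oxidised further by alcohol and aldehyde dehydrogenases to dicarboxylic acids, which are shortened in peroxisomes. In mouse liver, Cyp4a10 and Cyp4a14 are textbook targets of PPARA, the nuclear receptor that senses fatty acids, whereas Cyp4a12a is known as a male-predominant enzyme and as the main enzyme in mice that omega-hydroxylates arachidonic acid to a vasoactive lipid.

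All values are deposited signals read as log2, so a difference of 1 is a doubling, and a level of one probe is never set against that of another. The 18 arrays had median signals between 4.43 and 4.59. Along the first principal component of all probes (17.91% of the variance) 5 arrays stood apart, at 27.8 to 38.6, and the other 13 lay between -22.9 and -8.08. These 5 were the 3 PFOS arrays of the high-fat diet, replicate 3 of PFOS on the low-fat diet and replicate 3 of PFNA on the high-fat diet. The same arrays stood apart, at 27.7 to 38.6, when the Cyp4a probes were left out of the component.

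The 6 genes lie together on chromosome 4 of the mouse, in the order Cyp4a12a, Cyp4a12b, Cyp4a14, Cyp4a10, Cyp4a31 and Cyp4a32 in RefSeq's GRCm38.p6 annotation, with 1 other protein-coding gene, Cyp4a30b, between the first and the last. The neighbour before Cyp4a12a is Cyp4a29, and the flanking family members are Cyp4x1 and Cyp4b1. A promoter window, 250 bases before to 50 after the start of the gene, was given by RefSeq (GRCm38.p6) for 1 of the 6 genes, Cyp4a32, and for the neighbour Cyp4a29. Both are shown because they are the windows at hand from the cluster, one of a gene whose shared probe rose and one of a neighbour whose probe stayed low. The windows are chr4:115600688-115600987 and chr4:115241794-115242093, both on the plus strand, and the capitals mark the longest run of bases, 8, that was identical when the windows were aligned from end to end.
Cyp4a32: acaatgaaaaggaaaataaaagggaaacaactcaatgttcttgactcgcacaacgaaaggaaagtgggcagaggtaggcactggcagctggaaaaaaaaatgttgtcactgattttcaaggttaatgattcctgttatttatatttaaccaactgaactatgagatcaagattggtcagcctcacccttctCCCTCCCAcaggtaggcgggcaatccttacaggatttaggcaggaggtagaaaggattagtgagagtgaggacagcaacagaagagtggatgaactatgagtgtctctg
Cyp4a29: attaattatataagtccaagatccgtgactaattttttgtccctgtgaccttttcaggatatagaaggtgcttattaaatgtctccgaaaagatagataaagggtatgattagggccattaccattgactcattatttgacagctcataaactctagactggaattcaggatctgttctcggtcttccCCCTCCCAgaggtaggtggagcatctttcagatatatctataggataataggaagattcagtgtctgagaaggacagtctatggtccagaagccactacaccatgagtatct
In that alignment 159 of 312 columns were identical (51.0%). Both strands were searched for the nuclear receptor half-sites AGGTCA and GGGTCA, for AGGTCA repeated with any 1 base between (the direct repeat that PPARA with its partner RXR is known to bind) and for the STAT5 palindrome TTCNNNGAA; the repeat holds the first half-site within it. None of these was found in the Cyp4a32 window. The Cyp4a29 window held AGGTCA once, on the minus strand, at position -205 from the gene's start. Of 32851 promoter windows of the same length, 16.3% held AGGTCA, 13.7% held GGGTCA, 0.0396% held the repeat and 8.3% held the palindrome. A match or its absence describes these letters alone.

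Cyp4a12a, the arachidonic acid omega-hydroxylase, rose in all 4 exposed groups. Its signal was 10.21, 10.05 and 10.04 with PFOS and 10.26, 10.13 and 10.02 with PFNA on the low-fat diet, against 9.16, 9.24 and 8.80 in the low-fat controls. On the high-fat diet it was 9.93, 9.92 and 10.09 with PFOS and 9.87, 9.95 and 10.03 with PFNA, against 8.41, 8.66 and 8.80 in the high-fat controls. Every exposed array was higher than every control array, and the 12 exposed arrays spanned only 9.87 to 10.26 while the 6 controls spanned 8.41 to 9.24. On the low-fat diet the differences from the control were 1.03 with PFOS (SE 0.14, 2.05-fold, adjusted p = 0.00391) and 1.07 with PFNA (SE 0.14, 2.10-fold, adjusted p = 0.00203). The high-fat differences were 1.36 with PFOS (SE 0.14, 2.56-fold, adjusted p = 0.00012) and 1.33 with PFNA (SE 0.14, 2.51-fold, adjusted p = 0.000335). Among all probes ordered by p, Cyp4a12a ranked 5 with PFOS and 7 with PFNA on the low-fat diet, and 4 with PFOS and 2 with PFNA on the high-fat diet. The low-fat call for PFOS was lost when only those PFOS and control arrays entered the fit (adjusted p = 0.120), and the other calls were kept in every alternative.

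Cyp4a12b, the neighbouring copy, whose close relation to Cyp4a12a is well known, gave the same picture with a wider gap on the high-fat diet. Its signal on the low-fat diet was 10.92, 11.25 and 10.91 with PFOS and 11.28, 11.10 and 11.04 with PFNA, against 10.21, 10.65 and 9.87 in the controls. With the high-fat diet it was 11.08, 10.97 and 10.99 with PFOS and 11.15, 10.99 and 11.01 with PFNA, against 9.05, 9.33 and 8.62 in the controls. The 12 exposed arrays lay between 10.91 and 11.28, above all 6 controls (8.62 to 10.65), and the high-fat controls lay below the low-fat controls without overlap. The rise was 2.01 with PFOS (SE 0.19, 4.04-fold, adjusted p = 7.68e-05) and 2.05 with PFNA (SE 0.19, 4.14-fold, adjusted p = 0.000117) on the high-fat diet, where the PFNA difference had the smallest p of all 34472 probes. The low-fat rise with PFNA was 0.90 (SE 0.19, 1.86-fold, adjusted p = 0.0344). The low-fat PFOS difference of 0.78 (SE 0.19) missed the threshold (adjusted p = 0.0824), although the groups did not overlap. The low-fat calls moved with the setting: the PFNA call was lost without any 1 of replicates 1 and 3 of the control or without any 1 PFNA array (adjusted p 0.0937 to 0.130) and with only those 2 groups in the fit (adjusted p = 0.0915). The PFOS difference passed in 4 of the alternatives, with adjusted p between 0.0399 and 0.0493.

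**Figure D1:**
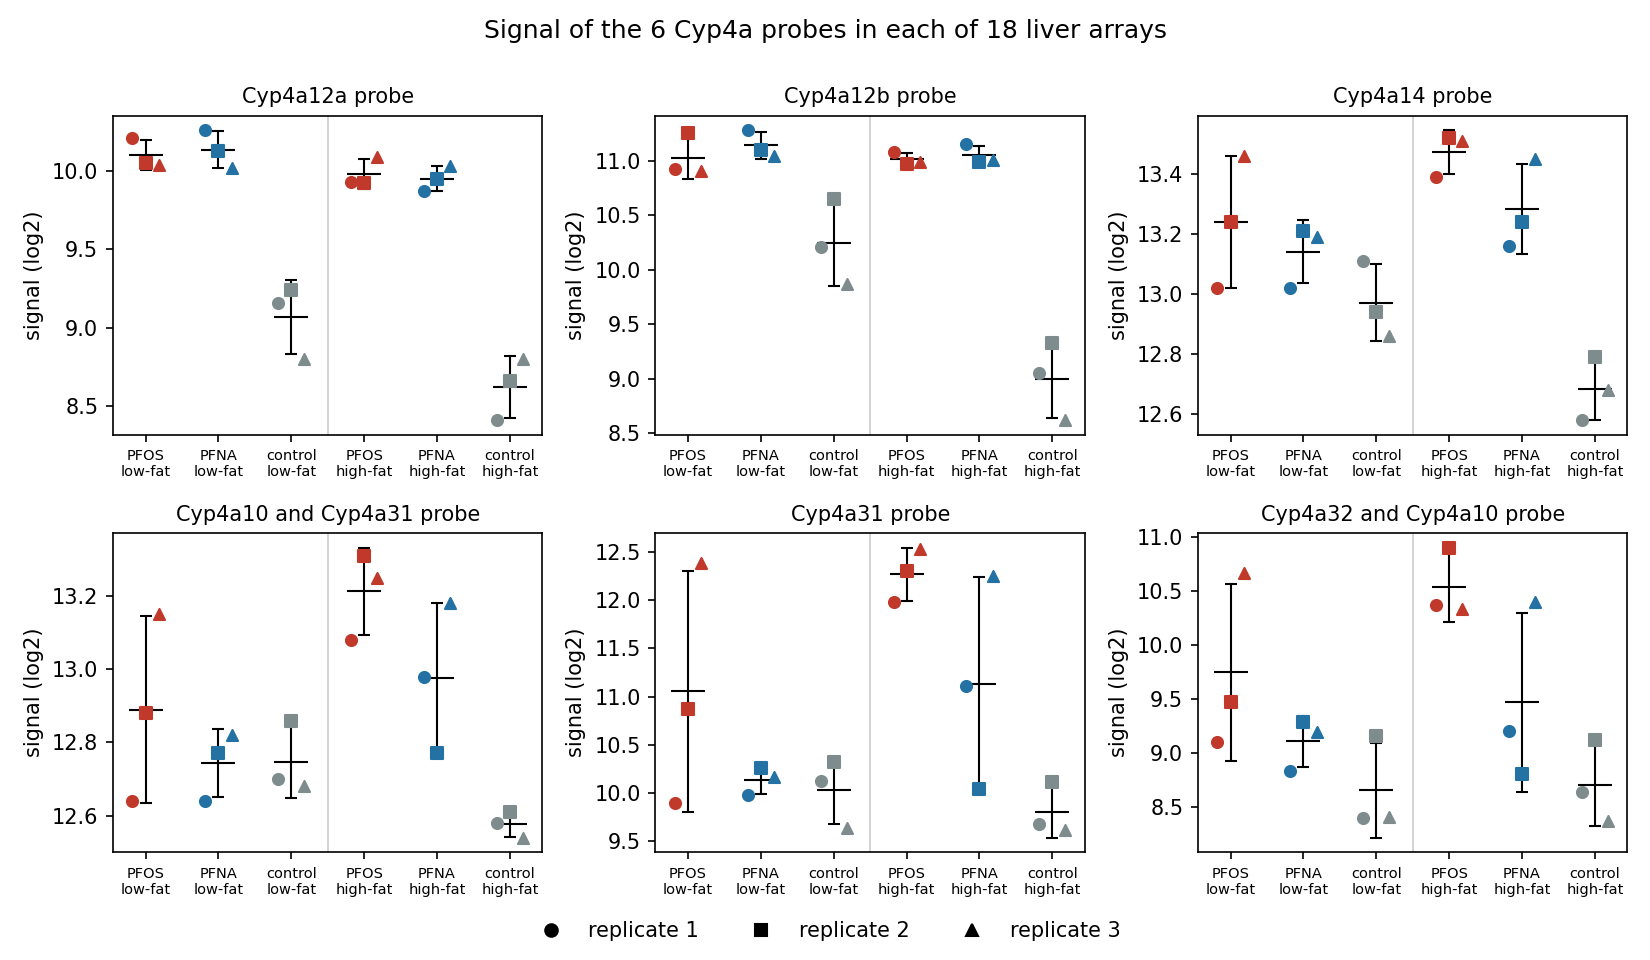
Signal (log2) of each Cyp4a probe on every array, 1 panel a probe, with the groups along the horizontal axis and the replicate given by the marker's shape; the long bar is the group mean and the whiskers are 1 SD (n = 3), and each panel has its own scale. For Cyp4a12a and Cyp4a12b all 12 exposed arrays lie above all 6 controls, whereas in the other panels replicate 3 of PFOS on the low-fat diet and of PFNA on the high-fat diet lies with the PFOS arrays of the high-fat diet.

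Cyp4a14, a fatty acid omega-hydroxylase and PPARA target, rose only modestly on the log2 scale and passed the test with PFOS on the high-fat diet. Its signal on the low-fat diet was 13.02, 13.24 and 13.46 with PFOS and 13.02, 13.21 and 13.19 with PFNA, against 13.11, 12.94 and 12.86 in the controls. High-fat signals were 13.39, 13.52 and 13.51 with PFOS and 13.16, 13.24 and 13.45 with PFNA, against 12.58, 12.79 and 12.68 in the controls. The exposed and control arrays overlapped on the low-fat diet and did not overlap on the high-fat diet. The differences on the high-fat diet were 0.79 with PFOS (SE 0.13, 1.73-fold, adjusted p = 0.00935) and 0.60 with PFNA (SE 0.13, 1.52-fold, adjusted p = 0.0824). The low-fat differences were 0.27 with PFOS (adjusted p = 0.427) and 0.17 with PFNA (adjusted p = 0.643). The high-fat PFNA difference passed with an intensity trend and robust prior (adjusted p = 0.0272) and when dim probes were left out (adjusted p = 0.0336). The highest signals on any array were 13.83 to 14.01, close to the 13.52 that Cyp4a14 reached; whether the scale is compressed there was not tested.

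The probe shared by Cyp4a10, another fatty acid omega-hydroxylase and PPARA target, and Cyp4a31 also rose with PFOS on the high-fat diet. Its signal was 12.64, 12.88 and 13.15 with PFOS and 12.64, 12.77 and 12.82 with PFNA on the low-fat diet, against 12.70, 12.86 and 12.68 in the controls. In high-fat livers it was 13.08, 13.31 and 13.25 with PFOS and 12.98, 12.77 and 13.18 with PFNA, against 12.58, 12.61 and 12.54 in the controls. All 6 exposed arrays of the high-fat diet were above its 3 controls, while on the low-fat diet exposed and control arrays overlapped. The high-fat difference was 0.64 with PFOS (SE 0.14, 1.56-fold, adjusted p = 0.0348) and 0.40 with PFNA (SE 0.14, adjusted p = 0.324). With only the PFOS and control arrays of that diet in the fit, the PFOS call was lost (adjusted p = 0.0679). The probe reached 13.31, also close to the highest signals on any array, 13.83 to 14.01. Whether the scale is compressed there was not tested.

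Cyp4a31, a close relative of Cyp4a10, had replicates that were far apart in 2 of the exposed groups. Its signal on the low-fat diet was 9.90, 10.87 and 12.39 with PFOS and 9.98, 10.26 and 10.17 with PFNA, against 10.12, 10.32 and 9.64 in the controls. The high-fat values were 11.98, 12.30 and 12.53 with PFOS and 11.11, 10.04 and 12.25 with PFNA, against 9.68, 10.11 and 9.62 in the controls. Replicate 3 of PFOS on the low-fat diet and replicate 3 of PFNA on the high-fat diet were as high as the high-fat PFOS arrays, and their group mates were lower by more than 1. The probe rose with PFOS on the high-fat diet by 2.47 (SE 0.50, 5.53-fold, adjusted p = 0.0259). The differences of 1.03 with PFOS on the low-fat diet (SE 0.50, adjusted p = 0.429) and 1.33 with PFNA on the high-fat diet (SE 0.50, adjusted p = 0.372) did not pass. Without the 2 high arrays the difference was 0.36 in low-fat PFOS livers (adjusted p = 0.701) and 0.77 with PFNA on the high-fat diet (adjusted p = 0.391). Each was the highest array of its group on this probe, so a smaller difference had to follow from leaving it out.

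The probe shared by Cyp4a32 and Cyp4a10 followed the same arrays. Its signal was 9.10, 9.47 and 10.67 with PFOS and 8.84, 9.29 and 9.20 with PFNA on the low-fat diet, against 8.40, 9.16 and 8.41 in the controls. On the high-fat diet it was 10.37, 10.90 and 10.33 with PFOS and 9.21, 8.81 and 10.40 with PFNA, against 8.64, 9.12 and 8.37 in the controls. Only the high-fat PFOS arrays were all above their controls. They were higher by 1.82 (SE 0.39, 3.54-fold, adjusted p = 0.0320). The differences of 1.09 with PFOS on the low-fat diet (SE 0.39, adjusted p = 0.269) and 0.76 with PFNA on the high-fat diet (SE 0.39, adjusted p = 0.553) did not pass. With those 2 arrays left out, the difference was 0.63 in low-fat PFOS livers (adjusted p = 0.341) and 0.30 with PFNA on the high-fat diet (adjusted p = 0.782).

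Counted over the family, with PFOS on the low-fat diet 1 of 6 probes rose, against 0.281% of all probes. With PFNA on the low-fat diet 2 of 6 rose, against 0.374%. With PFOS on the high-fat diet 6 of 6 rose, against 0.632%, and with PFNA on the high-fat diet 2 of 6 rose, against 0.087%. None fell. The exposed arrays lay above the controls without overlap for 2 probes with PFOS on the low-fat diet (7.58% of all probes), 2 with PFNA on the low-fat diet (10.1%), 6 with PFOS on the high-fat diet (9.71%) and 4 with PFNA on the high-fat diet (6.83%). The high-fat PFOS count was 2 or 3 when any 1 of the 6 arrays of that comparison was left out. The calls of the Cyp4a31 probe and both shared probes were lost each time, with differences of 0.59 to 2.62 and adjusted p of 0.0546 to 0.133. That of Cyp4a14 was lost without replicate 2 of PFOS (adjusted p = 0.0503), and those of Cyp4a12a and Cyp4a12b were kept each time. The pairs of comparisons on one diet share their control arrays.

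**Figure D2:**
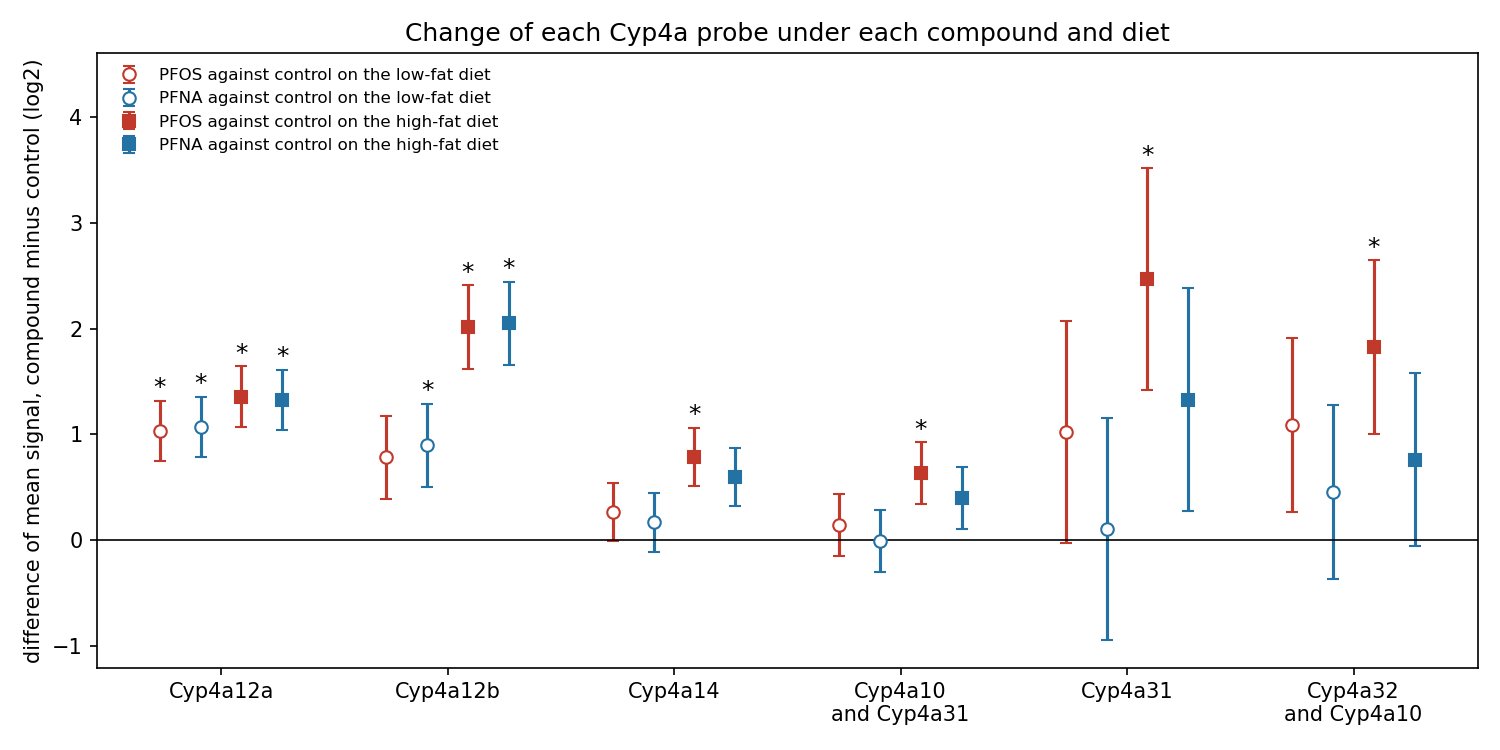
Difference of mean signal (log2, compound minus the control of the same diet) of each Cyp4a probe, with 95% confidence intervals of the fit (n = 3 arrays a group); open circles are the low-fat diet, filled squares the high-fat diet, and a star marks an adjusted p under 0.05 over all probes. Cyp4a12a has a star in all 4 comparisons at differences of 1.03 to 1.36, whereas the Cyp4a31 and Cyp4a32 with Cyp4a10 probes have wide intervals and 1 star each, with PFOS on the high-fat diet.

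Across single arrays the 6 probes showed 2 patterns. For Cyp4a14, Cyp4a31 and both shared probes, the 5 highest arrays were the same 5 that stood apart on the first principal component. They lay at 11.98 to 12.53 for Cyp4a31, where the next array had 11.11, and at 10.33 to 10.90 for the probe of Cyp4a32 and Cyp4a10, where the next had 9.47. For Cyp4a14 they lay at 13.39 to 13.52, with the next array at 13.24. For the probe of Cyp4a10 and Cyp4a31 the 5 had 13.08 to 13.31 and the next 12.98. Cyp4a12a and Cyp4a12b did not order the arrays in this way: the highest array of both was replicate 1 of PFNA on the low-fat diet (10.26 for Cyp4a12a and 11.28 for Cyp4a12b). Of the 12 exposed arrays, 12 exceeded the highest control for each of these genes, against 10 for Cyp4a14, 9 for the probe of Cyp4a32 and Cyp4a10, and 7 each for the probe of Cyp4a10 and Cyp4a31 and for Cyp4a31.

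As a description over the 18 arrays, which share their groups, the Pearson correlation of the Cyp4a31 probe was 0.97 with the probe of Cyp4a10 and Cyp4a31 and 0.95 with that of Cyp4a32 and Cyp4a10. After the group means were taken out, these were 0.94 and 0.90. These probes share gene symbols, so signal from one copy may be read by several of them. Cyp4a14, which shares no symbol with them, had correlations of 0.83 to 0.89 with the 3 probes, and 0.72 to 0.79 within groups. Cyp4a12a and Cyp4a12b correlated at 0.92 over the 18 arrays and at 0.23 within groups. With the 4 other probes, Cyp4a12a had correlations of 0.51 to 0.79 over the 18 arrays and of -0.06 to 0.13 within groups. Cyp4a12b had 0.50 to 0.79 with them over the 18 arrays and 0.01 to 0.23 within groups. Within groups its highest value with them, 0.2292, was close to its value with Cyp4a12a, 0.2335.

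**Figure D3:**
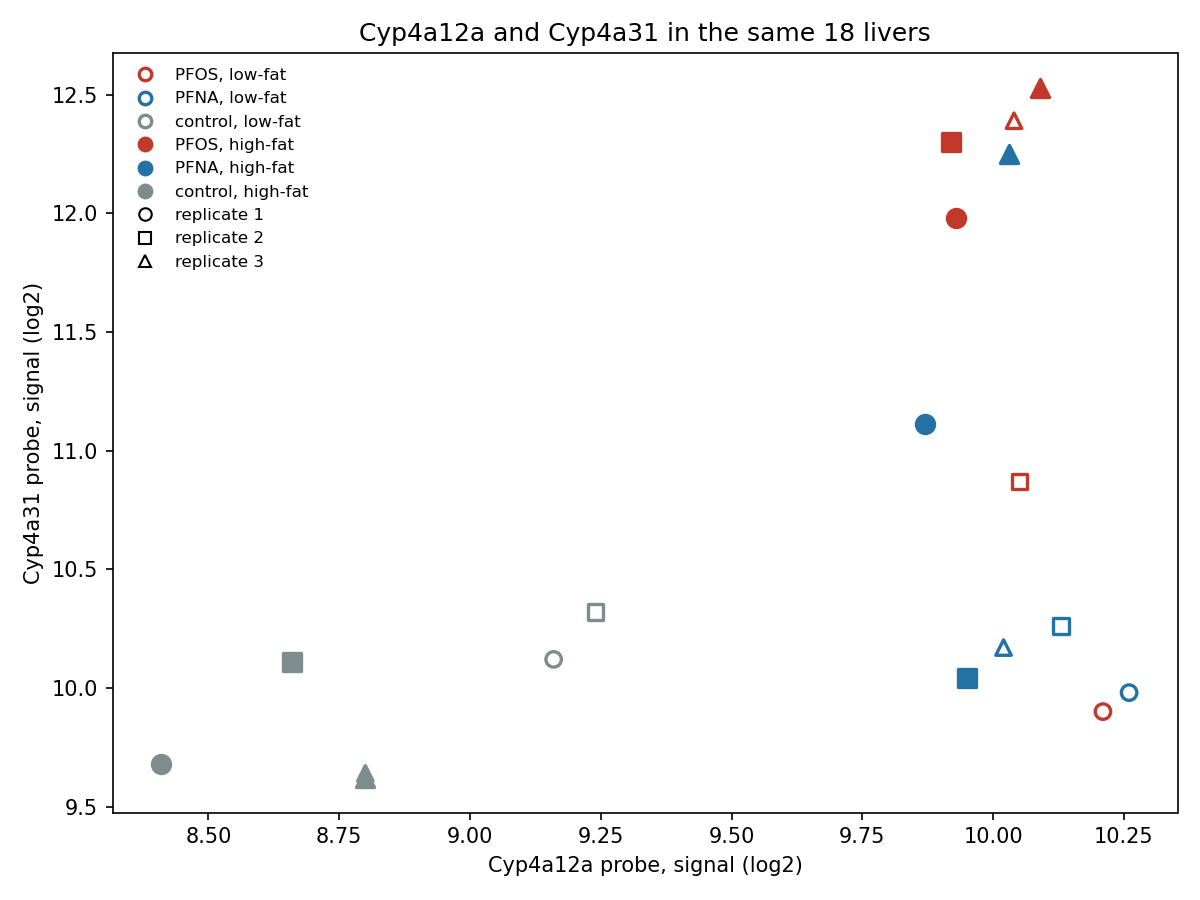
Signal (log2) of the Cyp4a31 probe on the vertical axis against that of the Cyp4a12a probe on the horizontal axis, 1 point an array (18 arrays); open markers are the low-fat diet, filled ones the high-fat diet, and the shape gives the replicate. The 12 exposed arrays lie together at 9.87 to 10.26 for Cyp4a12a and spread from 9.90 to 12.53 for Cyp4a31; replicate 3 of both control groups nearly coincides, at 8.80 for Cyp4a12a and 9.64 and 9.62 for Cyp4a31.

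In order of mean signal, Cyp4a12a was at 10.14 ± 0.12 with PFNA and 10.10 ± 0.10 with PFOS on the low-fat diet, 9.98 ± 0.10 with PFOS and 9.95 ± 0.08 with PFNA on the high-fat diet, 9.07 ± 0.23 in low-fat controls and 8.62 ± 0.20 in high-fat controls (SD, n = 3 each). Neighbouring exposed groups overlapped in this order, the lowest exposed group did not overlap the low-fat controls (a gap of 0.88 between their means), and the control groups overlapped each other. Cyp4a12b had the same break between exposed groups (means of 11.01 to 11.14) and controls, whose means were 9.00 ± 0.36 on the high-fat and 10.24 ± 0.39 on the low-fat diet. For Cyp4a14, Cyp4a31 and the probe of Cyp4a10 and Cyp4a31, high-fat PFOS had the highest mean and high-fat controls the lowest. For Cyp4a31 each group overlapped the next, from 12.27 ± 0.28 with PFOS on the high-fat diet, through 11.13 ± 1.11 with PFNA on the high-fat diet and 11.05 ± 1.26 with PFOS on the low-fat diet, to 10.14 ± 0.14 with PFNA on the low-fat diet, 10.03 ± 0.35 in low-fat controls and 9.80 ± 0.27 in high-fat controls.

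PFNA and PFOS were compared directly on each diet, which gives 12 differences over the 6 probes, with p-values adjusted over all probes of a comparison. limma called no Cyp4a probe on the low-fat diet (0% of all probes were called) or on the high-fat diet (0.0029% were called). An unadjusted p under 0.05 was found for 0 of the 6 on the low-fat diet, against 1351 of all 34472 probes. On the high-fat diet it was found for 2, against 2501. No Cyp4a probe had groups that did not overlap (8.98% of all probes on the low-fat and 10.3% on the high-fat diet had). For Cyp4a12a PFNA minus PFOS was 0.04 on the low-fat diet (95% interval -0.25 to 0.32) and -0.03 on the high-fat diet (-0.32 to 0.26). For Cyp4a12b it was 0.11 (-0.28 to 0.51) on the low-fat diet and 0.04 (-0.36 to 0.43) on the high-fat diet. Differences inside these intervals remain possible, so the compounds are not shown to act alike on either gene. For Cyp4a31 and the probe of Cyp4a32 and Cyp4a10 the intervals were wider and lay mostly below 0. On the high-fat diet PFNA minus PFOS was -1.14 for Cyp4a31 (-2.18 to -0.09, adjusted p = 0.666) and -1.06 for the probe of Cyp4a32 and Cyp4a10 (-1.88 to -0.24, adjusted p = 0.654). The low-fat differences were -0.92 (-1.96 to 0.13) for Cyp4a31 and -0.64 (-1.46 to 0.18) for the probe of Cyp4a32 and Cyp4a10. Without replicate 3 of PFNA on the high-fat diet and of PFOS on the low-fat diet, the high-fat differences were -1.70 for Cyp4a31 (adjusted p = 0.0155) and -1.52 for the probe of Cyp4a32 and Cyp4a10 (adjusted p = 0.0115), and both were called. That PFNA array was the highest of its group on both probes, so leaving it out had to widen the gap. In that setting 510 of 34472 probes were called, against 1 in the main fit. With any 1 array left out limma called neither (adjusted p at least 0.178 for Cyp4a31 and 0.134 for the shared probe). For Cyp4a14 the differences were -0.10 (-0.37 to 0.17) on the low-fat and -0.19 (-0.46 to 0.08) on the high-fat diet. For the probe of Cyp4a10 and Cyp4a31 they were -0.15 (-0.44 to 0.14) on the low-fat and -0.24 (-0.53 to 0.05) on the high-fat diet.

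Without a compound, the difference of the high-fat from the low-fat controls was -1.24 for Cyp4a12b (SE 0.19, 2.37-fold lower, adjusted p = 0.0652), which did not pass. This was the second smallest p of all probes, and it passed in 4 alternatives that kept all arrays (adjusted p 0.0190 to 0.0350). Those of the others were -0.44 for Cyp4a12a (SE 0.14, adjusted p = 0.627) and -0.29 for Cyp4a14 (SE 0.13, adjusted p = 0.771). The difference was -0.17 for the probe of Cyp4a10 and Cyp4a31, -0.22 for Cyp4a31 and 0.05 for the probe of Cyp4a32 and Cyp4a10. limma called no Cyp4a probe (0.0029% of all probes were called), although 3 of 6 had an unadjusted p under 0.05. Of all 34472 probes, 2222 had such a p. The probes of 3 of 6, Cyp4a12b, Cyp4a14 and Cyp4a10 with Cyp4a31, lay lower in high-fat controls without overlap, against 5.54% of all probes.

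limma was used to test whether a compound's difference was larger on the high-fat than on the low-fat diet. It called no Cyp4a probe, and 0% of all probes, for PFOS or for PFNA. An unadjusted p under 0.05 was found for 3 of the 6 for PFOS, against 2192 of all 34472 probes. For PFNA it was found for 2, against 1786. The largest estimates relative to their error were for Cyp4a12b, at 1.23 for PFOS (SE 0.26, adjusted p = 0.664) and 1.15 for PFNA (SE 0.26, adjusted p = 0.938). For Cyp4a12a they were 0.32 for PFOS (SE 0.19) and 0.26 for PFNA (SE 0.19). The exposed group means of Cyp4a12b lay at 11.01 to 11.14 on both diets, and the control mean was 9.00 on the high-fat and 10.24 on the low-fat diet. For Cyp4a31 the estimates were 1.44 (SE 0.70) for PFOS and 1.22 (SE 0.70) for PFNA.

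The Cyp4a genes that are not members of the set stayed low. Cyp4a29 lay between 2.04 and 3.25 and Cyp4a30b between 2.91 and 3.55 on the 18 arrays, and neither was called in any comparison. Both lay below the median of all probes on every array and were not shown to be above background. Whether these 2 genes responded therefore cannot be told from their probes. Cyp4a30b sits between Cyp4a12b and Cyp4a14, both of which rose with PFOS on the high-fat diet. Cyp4x1 and Cyp4b1, which flank the cluster, were also not called with either compound on either diet. Of 13 other Cyp4 family and related omega-hydroxylase genes measured, 1 rose on the high-fat diet with PFOS and 1 with PFNA, in both cases Cyp4f15, and none fell. Cyp4f15 had 9.69, 10.05 and 9.83 with PFOS and 9.90, 9.69 and 9.86 with PFNA on the high-fat diet, against 8.78, 9.22 and 8.77 in the controls. Its differences were 0.93 with PFOS (SE 0.16, adjusted p = 0.0104) and 0.89 with PFNA (SE 0.16, adjusted p = 0.0362).

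**Figure D4:**
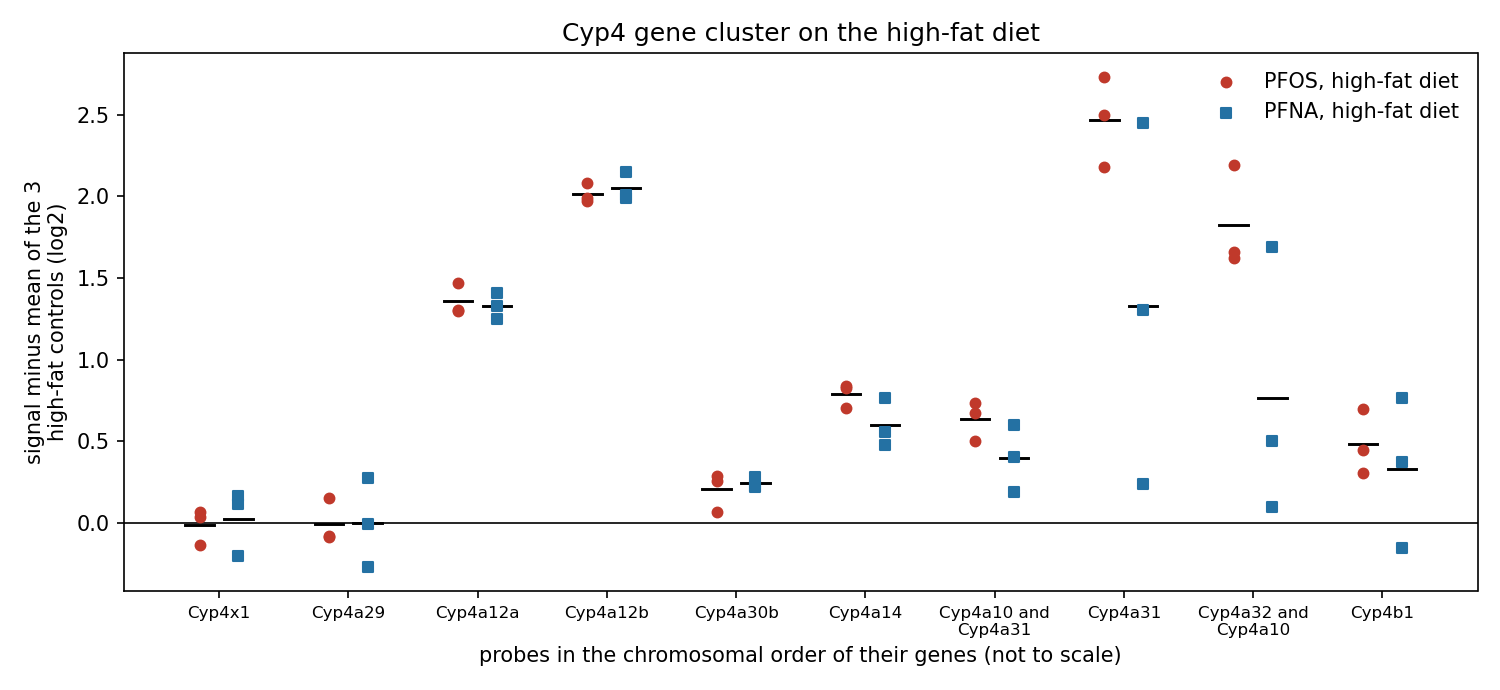
Signal minus the mean of the 3 high-fat controls (log2) for each exposed array of the high-fat diet, with probes in the chromosomal order of their genes (not to scale); circles are PFOS, squares PFNA and bars the means (n = 3). Cyp4a29, Cyp4a30b and Cyp4x1 stay near 0 beside the Cyp4a12 genes at 1.33 to 2.05, and PFNA replicates spread widely for Cyp4a31 and for Cyp4a32 with Cyp4a10. Cyp4a29 and Cyp4a30b have signals below the median of all probes and Cyp4x1 has signals close to it, so a change may go unseen there. Cyp4b1, which was not called, had means of 7.42 with PFOS and 7.26 with PFNA, against 6.93 in the controls.

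The steps after omega-hydroxylation were read from lists of genes. For comparison with their counts, limma gave an unadjusted p under 0.05 to 4119 of all 34472 probes with PFOS on the low-fat diet. It gave one to 4435 with PFNA on that diet, and to 4670 with PFOS and 3369 with PFNA on the high-fat diet. Of 3 measured genes that supply electrons to P450s, Cyb5b (the cytochrome b5 of the mitochondrial outer membrane) rose with PFNA on the low-fat diet (0.80, adjusted p = 0.0444), and limma called none in the other 3 compound comparisons, where 0 to 1 had an unadjusted p under 0.05. Por, also on that list, had no probe of its own and was not read. Of 8 alcohol and aldehyde dehydrogenases, on the low-fat diet Aldh1a7 rose with PFOS (0.96, adjusted p = 0.0358) and Aldh1a1 with PFNA (0.59, adjusted p = 0.0274). Aldh3a2, the fatty aldehyde dehydrogenase, rose with PFOS on the high-fat diet (0.80, adjusted p = 0.0424), and limma called none with PFNA on that diet, where 1 had an unadjusted p under 0.05. Of 6 genes of acyl activation and peroxisomal entry, Acsl5, an acyl-CoA synthetase, rose with PFOS on the high-fat diet (0.90, adjusted p = 0.0497). The median of that list was 0.83 with PFOS on the high-fat diet and 0.21 with PFNA on it, 0.26 with PFOS and -0.01 with PFNA on the low-fat diet, and the median over all probes was -0.02 to -0.01.

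Peroxisomal beta-oxidation genes, which shorten dicarboxylic acids, moved with PFOS on the high-fat diet, where 4 of 10 measured members rose and none fell, with a list median of 0.50 against -0.01 over all probes. Ehhadh, the peroxisomal bifunctional enzyme, rose by 1.98 (SE 0.40, 3.95-fold, adjusted p = 0.0259). The other 3 were Acot3 (1.48, adjusted p = 0.00935) and Acot4 (1.21, adjusted p = 0.0375), which are peroxisomal acyl-CoA thioesterases, and Acaa1b (0.96, adjusted p = 0.00178), a thiolase. limma called no member in the other 3 compound comparisons, where 0 to 4 had an unadjusted p under 0.05. Ehhadh had 12.91, 13.26 and 13.12 with PFOS and 11.70, 11.51 and 13.18 with PFNA on the high-fat diet, against 11.17, 11.05 and 11.13 in the controls, and 11.28, 11.64 and 13.17 with PFOS on the low-fat diet. Its 5 highest arrays, at 12.91 or above, were the 5 that were highest for Cyp4a31.

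Of 19 other PPARA targets of liver, 5 rose with PFOS on the high-fat diet and none fell, with a list median of 0.63. They were Mogat1 (3.03, adjusted p = 0.00935), an acyltransferase of triglyceride synthesis, the acyl-CoA thioesterases Acot1 (2.71, adjusted p = 0.00218) and Acot2 (2.61, adjusted p = 0.00935), Acadl (0.73, adjusted p = 0.0259), a mitochondrial acyl-CoA dehydrogenase, and Slc25a20 (0.63, adjusted p = 0.0266), the mitochondrial carnitine-acylcarnitine carrier, which was named after its value was seen. Cd36, a fatty acid translocase, was the only member called in low-fat PFOS livers, where it rose (1.47, adjusted p = 0.0460). limma called none with PFNA on either diet. An unadjusted p under 0.05 was more frequent: 7 members had it with PFOS and 3 with PFNA on the low-fat diet. On the high-fat diet 15 had it with PFOS and 5 with PFNA. Ppara itself lay between 9.72 and 10.07 on all 18 arrays and was not called in any comparison. Among 8 genes of PPARA and its partners, Ppargc1a, a coactivator, fell with PFNA on the low-fat diet (-1.10, adjusted p = 0.0163), and no other call was made with either compound.

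The CAR and PXR marker list, which stands for another pair of receptors that respond to foreign compounds, was counted beside them. Of its 8 members, 6 rose with PFOS and 5 with PFNA on the low-fat diet, and 2 with PFOS and 3 with PFNA on the high-fat diet, and none fell. The list median was 1.16 with PFOS and 1.06 with PFNA on the low-fat diet and 1.22 with PFOS and 1.26 with PFNA on the high-fat diet. Cyp2b10, the usual CAR marker, was lower on the 2 replicate 3 arrays that were high for Cyp4a31 than on their group mates: it had 9.59, 10.63 and 7.94 with PFOS on the low-fat diet and 10.63, 9.75 and 7.70 with PFNA on the high-fat diet, against 3.81 to 4.58 in low-fat and 3.88 to 4.49 in high-fat controls. It had 7.26, 9.28 and 8.91 with PFOS on the high-fat diet. The control signals of Cyp2b10 were near or below the median of all probes and not shown to be above background, so no size of its difference is given. Cyp2c55, Cyp3a11, Abcc3 and Ces2a were also lowest of their group on both replicate 3 arrays. Other members of the list were not: Aldh1a7 was highest of its group on both, and Gadd45b lay between its group mates on both. Gstm3 was lowest on the low-fat PFOS array and between its group mates on the high-fat PFNA array.

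Cyp4a12a is male-predominant, so other sex-biased genes were counted. Of 14 male-predominant genes, 2 rose and 3 fell with PFOS on the high-fat diet, and limma called none in the other 3 compound comparisons, where 0 to 3 had an unadjusted p under 0.05. Those that fell were Hsd3b5, a steroid dehydrogenase (adjusted p = 0.0255), Slco1a1, an organic anion transporter (-3.87, adjusted p = 0.00936), and Serpina1e, a serine protease inhibitor (-1.54, adjusted p = 0.0383). Those that rose were Elovl3, a fatty acid elongase (0.92, adjusted p = 0.0390), and Cyp2d9, a P450 (0.71, adjusted p = 0.0396), which was named after its value was seen. Hsd3b5 had 2.68, 2.39 and 2.96 with PFOS on the high-fat diet, against 7.43, 7.51 and 8.05 in the controls. The exposed signals lay below the median of all probes on an array and were not shown to be above background, so no size is given for this fall. Cyp4a12a was higher on these 3 exposed arrays than on every control array. Of 12 female-predominant genes, the same 3 were called with PFOS and with PFNA on the low-fat diet. The P450s Cyp2b9 (2.52 with PFOS and 2.23 with PFNA) and Cyp3a44 (5.54 to 6.15 with PFOS and 5.36 to 6.02 with PFNA, against 3.73 to 4.53 in the controls, which is too dim for a size) rose, and Cyp17a1, a steroid hydroxylase, fell (-1.86 with PFOS and -2.12 with PFNA). Acot3, also counted above, was the only one that rose with PFOS on the high-fat diet, and none was called with PFNA on it. Of 12 genes of growth hormone signalling to STAT5, limma called none with either compound on either diet, and 1 to 3 had an unadjusted p under 0.05. Of 8 genes of arachidonic acid epoxide metabolism, Ephx1, the microsomal epoxide hydrolase, rose with PFOS (0.77, adjusted p = 0.00683) and PFNA (0.71, adjusted p = 0.0102) on the low-fat diet and with PFOS on the high-fat diet (0.54, adjusted p = 0.0305). Cyp2c38, an arachidonic acid epoxygenase, fell with PFOS on the high-fat diet (-1.24, adjusted p = 0.0445).

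The genes whose signal most resembled that of Cyp4a12a, among 20608 named probes and by Pearson correlation over the 18 arrays, were Acad11 (0.96), Pla2g6 (0.96), Idh3b (0.95), Lipe (0.95) and Def8 (0.93). Pla2g6, a phospholipase, rose in all 4 comparisons, by 0.93 with PFOS and 0.90 with PFNA on the low-fat diet and by 1.14 with PFOS and 1.19 with PFNA on the high-fat diet. Lipe, the hormone-sensitive lipase, also rose in all 4, by 0.57 with PFOS and 0.56 with PFNA on the low-fat diet and by 0.86 with PFOS and 0.79 with PFNA on the high-fat diet. The correlation within groups was 0.64 for Acad11, 0.50 for Lipe, 0.47 for Idh3b, 0.22 for Pla2g6 and -0.43 for Def8. For Cyp4a14 the most similar genes were Acot1 (0.96), Acaa1b (0.94), Hsd17b11 (0.93), Mtarc1 (0.93) and Mettl7b (0.93). Within groups these correlations ranged from 0.69 for Mettl7b to 0.83 for Acot1. These genes were picked as the highest of many correlations.

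The tissue label was checked against cell type markers. The mean of 10 hepatocyte genes, such as Alb, was 11.51 to 11.65 with PFOS and 11.57 to 11.84 with PFNA on the high-fat diet, against 11.77 to 11.91 in the controls. On the low-fat diet it was 11.55 to 11.82 with PFOS and 11.66 to 11.76 with PFNA, against 11.80 to 11.93 in the controls. The mean of 11 Kupffer cell and macrophage markers was 7.63 to 8.26 with PFOS and 7.90 to 8.22 with PFNA on the low-fat diet, against 7.12 to 7.82 in the controls. With the high-fat diet it was 7.33 to 7.77 with PFOS and 7.43 to 7.78 with PFNA, against 6.90 to 8.06 in the controls. Of 59 measured markers of 8 other cell types, those of Kupffer cells included, limma called none in any of the 9 comparisons. On the low-fat diet their median difference was 0.24 with PFOS and 0.22 with PFNA. An unadjusted p under 0.05 was found for 15 with PFOS and 19 with PFNA, against 4119 and 4435 of all 34472 probes. The median difference of the 59 markers on the high-fat diet was -0.07 with PFOS and -0.04 with PFNA. There 6 with PFOS and 7 with PFNA had such a p, against 4670 and 3369 of all probes. Among the 59 markers, the 10 endothelial ones had a median difference of 0.36 with PFOS and 0.52 with PFNA on the low-fat diet. With PFOS 9 of 10 were positive and 4 had an unadjusted p under 0.05. With PFNA 10 of 10 were positive and 9 had such a p. With the high-fat diet the endothelial median was 0.06 with PFOS and 0.07 with PFNA. Their mean signal on the low-fat diet was 8.04 to 8.50 with PFOS and 8.40 to 8.49 with PFNA, against 7.62 to 8.20 in the controls. On the high-fat diet it was 7.82 to 8.26 with PFOS and 7.89 to 8.45 with PFNA, against 7.71 to 8.18 in the controls. The part of these marker shifts in the Cyp4a results was not tested. Fewer cells of a type and less RNA per cell cannot be told apart in whole liver.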

How the data were processed

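Liver RNA of 18 mice was measured on a gene-level array after Trizol extraction and biotin labelling, per the labels' protocols. Per the submitters' processing notes, the authors used Transcriptome Analysis Console to make the deposited log2 values; its version, background correction and normalization are not given here by any source used. That the scale is log2 was read from the range of the values. Probes were named from the platform's annotation, in which 23521 probes had 1 gene symbol, 1814 several and 9137 none.

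With group means as its terms, a linear model was fitted over 34472 probes and 18 arrays by limma 3.58.1 in R 4.3.3 (12 residual and 5.21 prior degrees of freedom). In each of 9 comparisons p-values were adjusted over all probes by Benjamini and Hochberg, two-sided; called means an adjusted p below 0.05. Errors are standard errors of the fit and intervals are 95% intervals from it, unless marked SD. The number of arrays limits the precision. The fit was tested on simulated data. Alternatives were other normalizations, a filter on dim probes, array weights, an intensity trend with a robust prior, fewer groups, a replicate block and arrays left out.

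A gene with several probes stood in a list by its brightest one. Named beside the Cyp4a probes were the 5 genes most correlated with Cyp4a12a and with Cyp4a14 and, per list and comparison, up to 4 called members with the largest difference; where a count was 5, the fifth (Slc25a20, Cyp2d9) was added after its value was seen. The CAR and PXR list did not follow this rule: values were given there for Cyp2b10 alone, whatever the number of called members. The Cyp4a genes, the lists and the tests were chosen with earlier results of these data known. Replicate numbers were not treated as pairs: of 45 pairs of arrays with the same number, 3 had correlated deviations over 0.1, against 2 of 90 pairs with other numbers. The median was -0.0012 for the same number and 0.0053 for other numbers, and the highest was 0.42 and 0.22. Whether some numbers mark pairs was not settled by this.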

Additional observations from a re-analysis of the deposited data

How the results depend on the processing

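The direction and call of Cyp4a12a and Cyp4a12b with both compounds on the high-fat diet held under all alternatives. The number of Cyp4a probes called with PFOS on the low-fat diet (1) became 2 with centred array medians, array weights, an intensity trend together with a robust prior, or dim probes left out, each time by the addition of Cyp4a12b, and 0 with only its groups in the fit. That with PFNA on the low-fat diet (2) became 1 with only its groups, by the loss of Cyp4a12b. With PFOS on the high-fat diet the count (6) became 5 with only its groups, by the loss of the probe of Cyp4a10 and Cyp4a31. With PFNA on that diet it (2) became 3, by the addition of Cyp4a14, with dim probes left out and with the trend and robust prior. That between the controls of both diets (0) became 1, Cyp4a12b, with quantile normalization, dim probes left out, the trend and robust prior, or the replicate block. The replicate block changed no other Cyp4a call. For 8 of 18 arrays the best-correlated deviation in another group had the same number, and no chance level was computed for this. Between PFNA and PFOS on the high-fat diet the count (0) became 2 when replicate 3 of low-fat PFOS and of high-fat PFNA were both left out. In that setting 510 of all probes were called.

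Leaving out 1 array at a time gave 2 to 6 Cyp4a probes with PFOS on the high-fat diet, 1 to 2 with PFNA on the low-fat diet and 0 to 1 between the controls, and no other count of Cyp4a probes moved. Differences that changed sign were small and never called. The low-fat PFNA difference of the probe of Cyp4a10 and Cyp4a31 was 0.053 with centred medians and 0.0067 with array weights, and -0.042 to 0.053 with 1 array left out, and that of Cyp4a31 was -0.083 to 0.26. The high-fat minus low-fat control difference of the probe of Cyp4a32 and Cyp4a10 was -0.15 to 0.31, and its interaction of diet with PFNA -0.15 to 0.64 (-0.15 without both replicates 3). PFNA minus PFOS was -0.025 to 0.095 (low-fat) and -0.07 to 0.025 (high-fat) for Cyp4a12a, -0.013 to 0.07 (high-fat) for Cyp4a12b, and -0.21 to 0.01 (low-fat) for Cyp4a14, which was 0.01 without both replicates 3. The cause of these changes was not tested.

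Counts over all probes moved more. With PFOS on the low-fat diet 134 probes were called, against 6 to 454 in the alternatives with all or all but 2 arrays and 22 to 260 with 1 array left out. With PFNA on the low-fat diet these were 195, 194 to 593 and 26 to 348. With PFOS on the high-fat diet they were 352, 283 to 1011 and 61 to 664, and with PFNA on it 39, 6 to 148 and 9 to 80. Between PFNA and PFOS on the high-fat diet there was 1, against 510 without both replicates 3, and the interaction with PFOS had 0, against 83. With centred medians the split of higher and lower calls was 159 and 27 in place of 97 and 37 with PFOS on the low-fat diet, 238 and 64 in place of 129 and 66 with PFNA on it, and 301 and 114 in place of 218 and 134 with PFOS on the high-fat diet. With quantile normalization it was 53 and 32 with PFOS on the low-fat diet and 114 and 89 with PFNA on it.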

Other observations

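Cyp4f14, a Cyp4 family member singled out after its values were seen, went the other way from Cyp4a31 on single arrays. Its signal was 8.01, 6.49 and 6.14 with PFOS and 9.00, 9.03 and 7.20 with PFNA on the high-fat diet, against 8.48, 9.20 and 9.01 in the controls. On the low-fat diet it was 9.11, 9.04 and 6.95 with PFOS and 9.36, 9.19 and 8.80 with PFNA, against 8.90, 9.13 and 9.15 in the controls. The 5 lowest arrays of Cyp4f14 were the 5 highest of Cyp4a31, and the difference with PFOS on the high-fat diet was -2.02 (SE 0.55, adjusted p = 0.0867), which did not pass the threshold.

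Slco1a1, an organic anion transporter of the male-predominant list, had its lowest signals on the same 5 arrays. It had 7.19, 5.70 and 5.43 with PFOS and 9.64, 8.95 and 6.97 with PFNA on the high-fat diet, against 9.70, 10.15 and 10.07 in the controls. On the low-fat diet it had 9.55, 9.72 and 7.41 with PFOS and 10.42, 10.23 and 8.92 with PFNA, against 10.94, 10.35 and 10.62 in the controls.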
